A study of Mus musculus with 15 samples.

Results

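Superoxide dismutases, catalase and peroxidases are the enzymes that remove superoxide and peroxides from the cell, and 10 of their genes were examined in mouse kidney: Sod1, Sod2, Sod3, Cat, Gpx1, Gpx3, Gpx4, Prdx3, Prdx5 and Prdx6. They were taken by name, and they are 10 of the 13940 genes that had an annotated transcript in every mouse. The value of a gene was the sum of its annotated transcripts, which here were 27 of 28871. All 10 genes passed the filter on low values, which left 12372 genes for testing. RNA-seq was performed on the kidneys of 15 male wild-type C57BL/6 mice, 5 in each of 3 groups, after 28 days of treatment through an osmotic pump and by gavage. Control mice received saline by pump and water by gavage. Ang II mice received angiotensin II at 500 ng/kg/min and water. Ang II + QDG mice received the same angiotensin II and Qingda granule (QDG), a formula of Chinese herbs, at 1.145 g/kg/day. Angiotensin II is the peptide that raises blood pressure through the renin-angiotensin system.

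Superoxide dismutases turn superoxide into hydrogen peroxide. Catalase in the peroxisome, the glutathione peroxidases and the peroxiredoxins then reduce hydrogen peroxide, and some of them also reduce lipid peroxides. Glutathione peroxidases draw on glutathione and most peroxiredoxins on thioredoxin, and angiotensin II is known to raise superoxide production through NADPH oxidases. The kidney is the main source of the glutathione peroxidase of blood plasma, which the Gpx3 gene encodes.

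Gpx1, Gpx3 and Gpx4 are selenoproteins. Their active site is a selenocysteine, which is read from a TGA codon that would otherwise end translation. The sequence around this codon is printed for the main transcript of each gene because the 3 genes share this feature, which the choice of genes did not use. Each stretch runs 5′ to 3′ on the coding strand of the GENCODE M21 transcript, with the selenocysteine TGA in capitals and 45 bases in all. On GRCm38 the codon is chr9:108339451-108339453 in Gpx1-201 (codon 47, plus strand), chr11:54907256-54907258 in Gpx3-201 (codon 73, plus strand) and chr10:80054737-80054739 in Gpx4-202 (codon 73, plus strand).
Gpx1-201: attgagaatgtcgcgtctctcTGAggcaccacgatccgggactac
Gpx3-201: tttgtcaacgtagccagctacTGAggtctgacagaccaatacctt
Gpx4-202: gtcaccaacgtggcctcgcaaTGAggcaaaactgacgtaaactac

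Values are FPKM, fragments scaled by transcript length and by library depth, so that levels of different genes can be compared per length. The depth that the values imply was 68.9 M to 81.3 M fragments per mouse, and a member gene rested on at least 9111 of them in its lowest mouse, for a counting error of at most 1.05%. The tissue carried its kidney markers: all 10 proximal tubule markers passed the filter, with a summed level of 7511 to 18371 FPKM in Control mice, 7185 to 9267 in Ang II mice and 9488 to 14089 in Ang II + QDG mice. In Ang II vs. Control these markers went both ways: 3 of 10 were higher and 3 lower at an unadjusted p under 0.05, none passed limma's adjusted threshold, and their log2 fold changes ran from −1.12 to 0.33. In Ang II + QDG vs. Ang II all 4 thick ascending limb markers were higher at an unadjusted p under 0.05, 0 of them after adjustment, with summed levels of 1058 to 1431 FPKM in Control, 776 to 1294 in Ang II and 1206 to 1626 in Ang II + QDG mice. Transcripts of the mitochondrial genome held 18.5% to 20.7% of the listed FPKM in Control mice, 15.4% to 16.0% in Ang II and 16.9% to 19.8% in Ang II + QDG. The summed level of 5 erythroid markers was 545 to 1362 FPKM in Control mice, 1115 to 1943 in Ang II mice and 1557 to 2818 in Ang II + QDG mice, and that of 3 podocyte markers was 75.1 to 83.4, 101 to 127 and 98.0 to 125. The 4 leukocyte markers listed summed to 2.60 to 7.82 FPKM over all mice. After adjustment with limma, 2 of 3 podocyte markers, 1 of 7 distal tubule and collecting duct markers and 1 of 5 stromal markers were higher in Ang II vs. Control, 1 of 5 erythroid markers was higher in Ang II + QDG vs. Control, and no other marker listed was called. The part of these differences in the results below was not tested.

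Among the 10 genes, Gpx3 had by far the highest level, with a mean of 8044 FPKM over 15 mice, which placed it 10th of 12372 tested genes. Gpx1 followed at 1734 FPKM, and Gpx3 was above Gpx1 in 15 of 15 mice. The cytosolic and organelle enzymes Prdx5 (775 FPKM), Gpx4 (604), Sod1 (552) and Cat (465) lay in the next range. Gpx4 was above Sod1 in 14 of 15 mice. Prdx3 (147 FPKM) and Sod3 (145) were not separated, since Prdx3 was the higher of the pair in 8 of 15 mice. Prdx6 (102 FPKM) was above Sod2 (87.7) in 10 of 15 mice, and these are the lowest levels of the set. Even Sod2 ranked 734th of the 12372 tested genes.

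**Figure D1:**
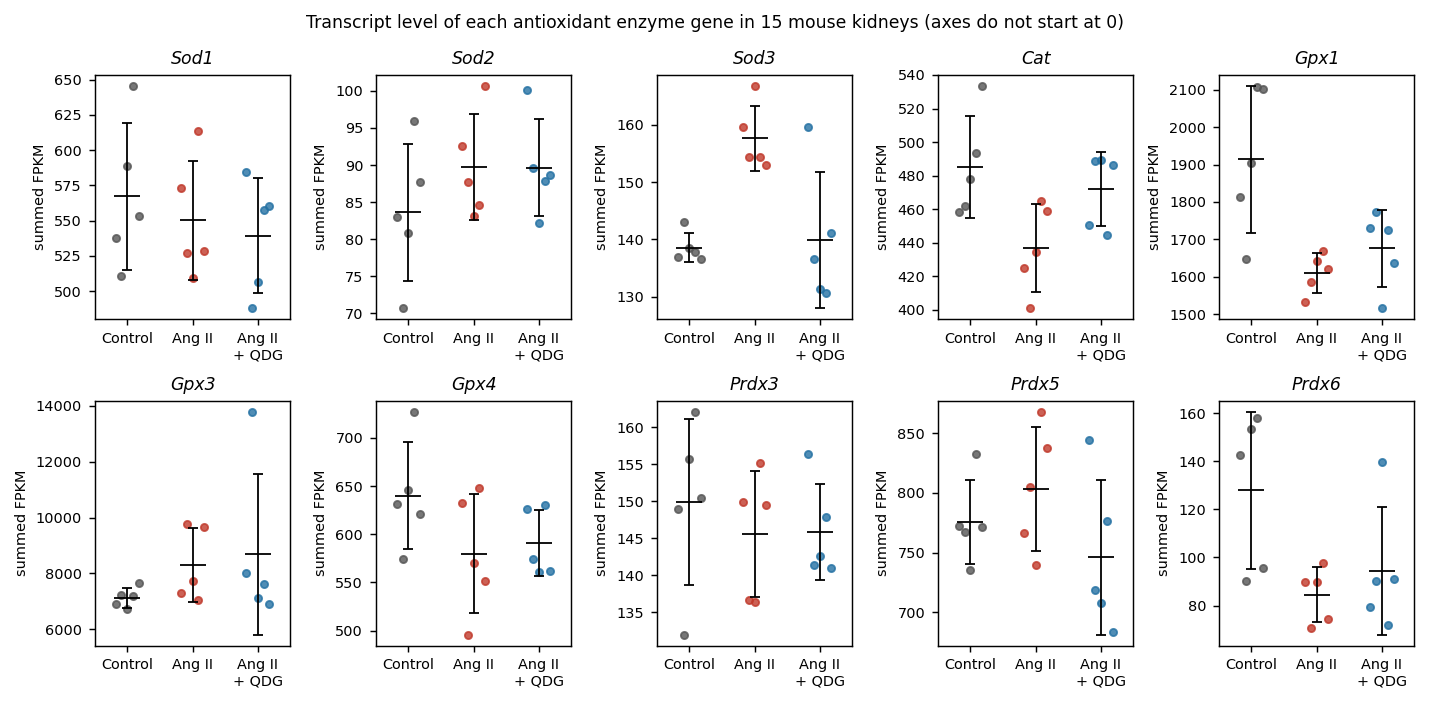
Summed FPKM of each of the 10 genes (vertical axis, which does not start at 0) in the 3 groups of mice; each point is 1 mouse, and the bar with whiskers is the mean ± SD of 5 mice. Sod3 is higher in all 5 Ang II mice than in any Control mouse, and 1 Ang II + QDG mouse stands apart for Gpx3 at 13786 FPKM.

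Ang II vs. Control asks which of these genes changed in the kidney with the infusion. Gpx1, the cytosolic and mitochondrial glutathione peroxidase, fell, and it was the only one of the 10 genes with an adjusted p under 0.05. Sod3 was at 139 ± 2.58 FPKM in Control and 158 ± 5.71 in Ang II (SD, n = 5 each) without passing the test. With limma, 1 of 10 genes was called, against 5.94% of all tested genes (735 of 12372), and in the lower direction 1 of 10 against 0.994%. Before adjustment 4 of the 10 genes had a p under 0.05 (Sod3 higher; Cat, Gpx1 and Prdx6 lower), against 22.7% of all genes. The median log2 fold change of the 10 genes was −0.04, and that of all tested genes was 0.08. Of the 735 genes called, 612 were higher in Ang II; under quantile normalization 227 of 495 were, and under median scaling 209 of 495. Leaving out 1 mouse gave 338 (Control mouse 1) to 797 genes (Control mouse 2), so the share of all genes called is itself uncertain. In whole kidney, fewer cells of a type and less RNA per cell cannot be told apart.

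**Figure D2:**
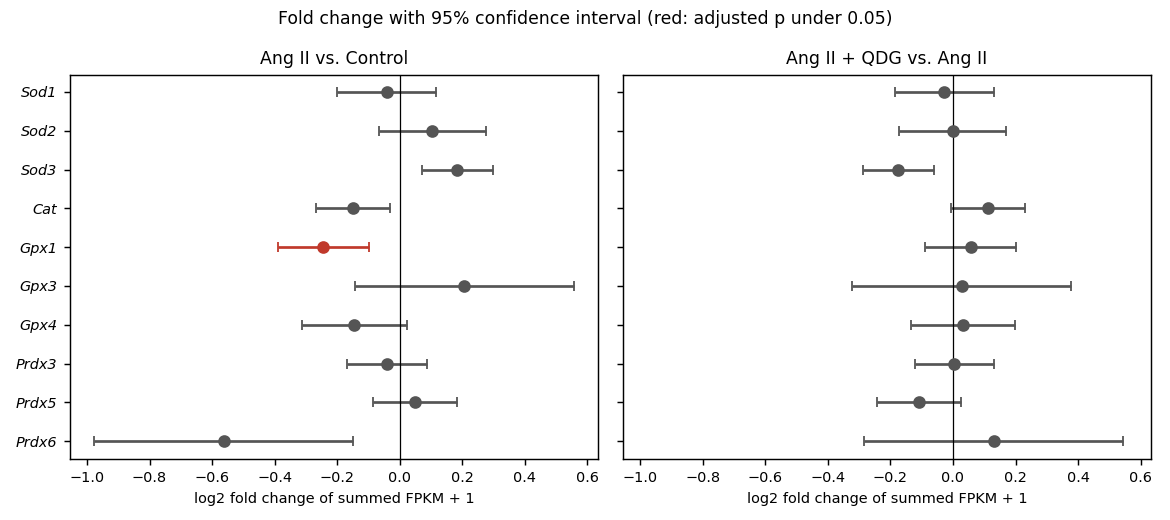
Log2 fold change of summed FPKM + 1 (horizontal axis) for each gene in Ang II vs. Control on the left and for the addition of QDG to Ang II on the right, with 95% confidence intervals from limma; red marks an adjusted p under 0.05. Only Gpx1 in Ang II vs. Control is red, at −0.24, and the Prdx6 interval is the widest.

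Ang II + QDG vs. Ang II asks which genes differed when the formula was added to the infusion. None of the 10 genes passed limma's adjusted threshold, where 1.81% of all tested genes did (224 of 12372), and 1 of 10 (Sod3, lower) had an unadjusted p under 0.05, against 16.4% of all genes. The median log2 fold change of the 10 genes was 0.02, beside −0.02 for all genes. Of the 224 genes called, 65 were higher with QDG; under quantile normalization 97 of 194 were, and under median scaling 68 of 167. The count of all genes called fell to 58 when only these 2 groups were fitted and ran from 53 (without Ang II mouse 2) to 250 (without Ang II + QDG mouse 1), so the 1.81% is no fixed background. In Ang II + QDG vs. Control 0 of 10 genes passed (0.129% of all genes did), and 2 of 10 had an unadjusted p under 0.05 (Gpx1 and Prdx6, both lower), against 14.4% of all genes. In what follows, a difference "with Ang II" is Ang II vs. Control and one "with QDG" is Ang II + QDG vs. Ang II. The 3 comparisons share mice, so their values are set side by side and not counted as separate evidence.

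Sod1 encodes the cytosolic copper-zinc superoxide dismutase (ENSMUSG00000022982; Sod1-201, chr16:90220754-90226329, plus strand, GRCm38). Its levels were 538, 511, 589, 646 and 553 FPKM in the Control mice, 573, 527, 509, 613 and 528 in Ang II mice and 585, 488, 507, 558 and 560 in Ang II + QDG mice. The 3 groups overlapped throughout, and its log2 fold change was −0.04 with Ang II (95% interval −0.20 to 0.12, adjusted p = 0.781 from limma) and −0.03 with QDG (−0.19 to 0.13, adjusted p = 0.895).

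Sod2, the manganese enzyme of mitochondria (ENSMUSG00000006818; Sod2-201, chr17:13007817-13020134, plus strand), was at 83.0, 70.7, 80.8, 95.9 and 87.7 FPKM in Control mice, 92.5, 87.7, 83.1, 84.6 and 101 in Ang II mice, and 100.1, 89.6, 82.1, 87.8 and 88.7 in Ang II + QDG mice. No group lay outside the others. For Sod2 the log2 fold change was 0.10 with Ang II (−0.07 to 0.28, adjusted p = 0.480 from limma), and with QDG it lay between −0.17 and 0.17 with 95% confidence.

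Sod3 encodes the secreted superoxide dismutase, which binds to the extracellular matrix and is abundant in vessel walls (ENSMUSG00000072941; Sod3-201, chr5:52363791-52371418, plus strand). Its levels were 137, 143, 139, 138 and 137 FPKM in Control mice and 160, 154, 167, 154 and 153 in Ang II mice. All 5 Ang II mice were above all 5 Control mice, a separation in this direction that 6.49% of all tested genes showed. With QDG the levels were 160, 137, 131, 131 and 141 FPKM, so that 4 of 5 mice were below the lowest Ang II mouse and 1 was as high as the Ang II group. Sod3 was higher by 0.18 on the log2 scale with Ang II (SE, the standard error, 0.05, adjusted p = 0.0563 from limma). With QDG the log2 fold change was −0.17 (SE 0.05, adjusted p = 0.105 from limma). Both missed the adjusted threshold. Both depended on the mice and settings used. Without the Ang II + QDG mouse at 160 FPKM, limma's adjusted p was 0.0205 with Ang II and 0.0208 with QDG. The log2 fold changes were then 0.18 and −0.22, and no other fit that left out 1 mouse passed. That mouse is in neither group of Ang II vs. Control, which it enters only through the spread shared in the model. When only the 2 groups of a comparison were fitted, the adjusted p was 0.0426 with Ang II and 0.208 with QDG. With median scaling the log2 fold change with Ang II was 0.08 (adjusted p = 0.474). Quantile normalization gave 0.11 with Ang II (adjusted p = 0.251) and −0.08 with QDG (adjusted p = 0.426). Of 5 stromal markers, 1 passed as higher with Ang II, and their log2 fold changes ran from −0.08 to 1.13. Their summed level was 19.7 to 34.1 FPKM in Control mice, 25.6 to 68.8 in Ang II mice and 36.1 to 45.8 in Ang II + QDG mice. The 4 endothelial markers, of which 0 passed with Ang II, summed to 38.4 to 57.2, 38.8 to 58.1 and 41.1 to 60.1 FPKM. The part of either cell type in the Sod3 values was not tested.

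Cat encodes catalase, the hydrogen peroxide breaking enzyme of the peroxisome (ENSMUSG00000027187; Cat-201, chr2:103453849-103485160, minus strand). It was at 459, 462, 478, 493 and 534 FPKM in Control mice, 425, 401, 434, 465 and 459 in Ang II mice and 451, 489, 490, 445 and 486 in Ang II + QDG mice. Ang II mice were the lower ones, with 3 of 5 below every Control mouse, and 3 of 5 Ang II + QDG mice were above every Ang II mouse. Its log2 fold change was −0.15 with Ang II (SE 0.06, adjusted p = 0.123 from limma) and 0.11 with QDG (−0.01 to 0.23, adjusted p = 0.336). It passed the threshold with quantile normalization (−0.22, adjusted p = 0.0478) and with median scaling (−0.26, adjusted p = 0.0457).

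Gpx1 (ENSMUSG00000063856; Gpx1-201, chr9:108339054-108340343, plus strand) was at 1812, 1647, 1905, 2108 and 2101 FPKM in Control mice and at 1534, 1586, 1641, 1670 and 1620 in Ang II mice. Of the Ang II mice, 4 of 5 were below the lowest Control mouse, which was Control mouse 2. In Ang II + QDG it was at 1731, 1774, 1516, 1725 and 1637 FPKM, overlapping both other groups. The means were 1914 ± 196, 1610 ± 52.5 and 1676 ± 103 FPKM (SD, n = 5 each). Gpx1 fell by 0.24 on the log2 scale with Ang II (SE 0.07, adjusted p = 0.0496 from limma). The log2 fold change with QDG was 0.06 (−0.09 to 0.20, adjusted p = 0.735). Compared with Control, the Ang II + QDG mice differed by −0.19 (adjusted p = 0.229 from limma).

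The call of Gpx1 lies at the threshold. Its log2 fold change was negative under all 25 alternatives, from −0.35 to −0.21, and the adjusted p ran from 0.016 to 0.199 and stayed under 0.05 in 6 of them. Leaving out 1 mouse kept the call in 2 of 15 cases (without Control mouse 2, adjusted p = 0.016, and without Ang II + QDG mouse 3, adjusted p = 0.0458); each of the other 13 mice, when left out, took the adjusted p to between 0.0565 and 0.104. The main transcript Gpx1-201 carried 94.3% of the level, with a log2 fold change of −0.25 (adjusted p = 0.0858 from limma over 28812 transcripts). The shorter Gpx1-202, which has 432 coding bases against 603 and no selenocysteine tag, was at 109 ± 18.4 FPKM in Control mice, 96.7 ± 10.4 in Ang II mice and 86.4 ± 15.9 in Ang II + QDG mice.

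The pattern of Gpx1 over the 15 mice was most like that of Smpdl3a (Pearson's r = 0.851), Mdh1 (r = 0.824), which encodes the cytosolic malate dehydrogenase, and Itfg1 (r = 0.815), out of all tested genes that are not among the 10. These points share libraries and depth, and are given as a description.

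Gpx3, the plasma glutathione peroxidase (ENSMUSG00000018339; Gpx3-201, chr11:54902772-54910377, plus strand), was at 6907, 7226, 6712, 7189 and 7646 FPKM in Control mice, 7294, 9790, 7722, 7038 and 9678 in Ang II mice and 8012, 13786, 7122, 7628 and 6912 in Ang II + QDG mice. Of the Ang II mice, 3 of 5 were above all Control mice. Ang II + QDG mouse 2 was far above the other 14, and its Gpx3-201 transcript alone reached 13160 FPKM. The log2 fold change was 0.21 with Ang II (−0.14 to 0.56, adjusted p = 0.497 from limma) and 0.03 with QDG (−0.32 to 0.38, adjusted p = 0.957). Without Ang II + QDG mouse 2, the latter was −0.15 (adjusted p = 0.526). The difference with Ang II ran from 0.07 with the most abundant transcript only to 0.50 with quantile normalization, and its adjusted p did not go under 0.129 in any of the 25 alternatives.

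A pair of transcripts carried most of Gpx3. Gpx3-201 held 84.1% of the gene's level and Gpx3-203 held 14.5%. Gpx3-203 was at 444, 893, 450, 1184 and 1190 FPKM in Control mice, 1523, 2020, 1327, 1148 and 2149 in Ang II mice and 1268, 622, 978, 1260 and 1028 in Ang II + QDG mice. Of the Ang II mice, 4 of 5 were above all Control mice, and 3 of 5 Ang II + QDG mice were below all Ang II mice. Its mean was 832 ± 372 FPKM in Control mice and 1634 ± 435 in Ang II mice (SD, n = 5 each), so that the transcript differed by 1.06 on the log2 scale (SE 0.31, adjusted p = 0.113 from limma), where 0.691% of all transcripts were called. With QDG the log2 fold change was −0.67 (adjusted p = 0.446 from limma). Gpx3-201 was at 6164 ± 211 FPKM in Control mice and 6537 ± 904 in Ang II mice, with a log2 fold change of 0.07 (adjusted p = 0.890), and the difference between the transcripts was not tested.

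Gpx3-203 lacks 997 of the 1594 exon bases of Gpx3-201 and has an exon that the main transcript lacks, which is printed here because it is sequence that Gpx3-201 does not hold. The exon is chr11:54907764-54907859 on the plus strand of GRCm38, 96 bases, all annotated as coding, and GENCODE marks the end of both the transcript and its coding sequence as not found. Of its 77 windows of 20 bases, 8 also occur on the same strand in transcripts of 10 other genes and 7 on the other strand in 9 other genes, and whether reads were assigned by strand is not given in the sources used here, so short reads could be shared in either.
Gpx3-203 exon: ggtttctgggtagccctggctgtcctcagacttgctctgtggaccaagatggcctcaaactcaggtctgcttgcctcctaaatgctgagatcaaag

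Gpx4 encodes the glutathione peroxidase that reduces lipid hydroperoxides in membranes and protects cells from ferroptosis (ENSMUSG00000075706; Gpx4-202, chr10:80053488-80056439, plus strand). It was at 631, 575, 646, 727 and 621 FPKM in Control mice, 633, 496, 571, 648 and 552 in Ang II mice and 626, 574, 561, 630 and 562 in Ang II + QDG mice. The groups overlapped, with 3 of 5 Ang II mice below the lowest Control mouse. Its log2 fold change was −0.14 with Ang II (−0.31 to 0.02, adjusted p = 0.296 from limma) and 0.03 with QDG (−0.14 to 0.20, adjusted p = 0.887). The retained-intron transcript Gpx4-206, at 0.19% of the gene's level, was at 0.531, 0.842, 0.912, 0.291 and 0.547 FPKM in Control mice and 1.16, 2.32, 1.497, 1.53 and 1.44 in Ang II mice. All 5 Ang II mice were above all Control mice. The share of all transcripts that separated in this way was not counted, and 6.49% of all tested genes did. The adjusted p of Gpx4-206 was 0.0603 (log2 fold change 0.67, SE 0.15, limma). Its values rest on only 9 to 70 fragments a mouse.

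Prdx3 (ENSMUSG00000024997; Prdx3-201, chr19:60864051-60874556, minus strand), the mitochondrial peroxiredoxin, was at 149, 132, 156, 162 and 150 FPKM in Control mice, 150, 137, 136, 155 and 149 in Ang II mice and 156, 141, 143, 148 and 141 in Ang II + QDG mice. No mouse of the Ang II group lay outside the range of Control. For Prdx3 the log2 fold change was −0.04 with Ang II (−0.17 to 0.09, adjusted p = 0.735 from limma), and with QDG it lay between −0.12 and 0.13 with 95% confidence.

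Prdx5, a peroxiredoxin of mitochondria, peroxisomes and cytosol (ENSMUSG00000024953; Prdx5-201, chr19:6906706-6910106, minus strand), was at 773, 767, 735, 832 and 771 FPKM in Control mice, 766, 805, 739, 868 and 838 in Ang II mice and 845, 719, 708, 776 and 684 in Ang II + QDG mice. With QDG, 3 of 5 mice were below all Ang II mice, and the mouse at 845 was within the Ang II range. The log2 fold change was 0.05 with Ang II (−0.09 to 0.18, adjusted p = 0.698 from limma) and −0.11 with QDG (−0.24 to 0.03, adjusted p = 0.421). At 1 fixed gene length the Prdx5 values with Ang II and with QDG were 0.13 (adjusted p = 0.189) and −0.14 (adjusted p = 0.217), while median scaling turned the sign of the difference with Ang II, at −0.06. Prdx5-201, with 79.7% of the level, had a log2 fold change of 0.27 with Ang II (adjusted p = 0.163 from limma), while Prdx5-203 was at 190 ± 83.5 FPKM in Control mice and 112 ± 53.6 in Ang II mice.

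Prdx6, the peroxiredoxin with a single catalytic cysteine that also has phospholipase activity (ENSMUSG00000026701; Prdx6-202, chr1:161240112-161251219, minus strand), was at 142, 90.2, 153, 158 and 95.5 FPKM in Control mice, 89.7, 70.8, 89.8, 97.8 and 74.5 in Ang II mice and 79.4, 90.1, 140, 72.0 and 91.1 in Ang II + QDG mice. Control mice fell into a high set of 3 and a low set of 2, and Ang II + QDG mouse 3 was with the high set. The log2 fold change of the sum was −0.56 with Ang II (SE 0.19, adjusted p = 0.101 from limma). With QDG it was 0.13 (−0.28 to 0.55, adjusted p = 0.797).

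The high set was set by 1 transcript, although the most abundant one was Prdx6-208, which is annotated as nonsense-mediated decay, held 43.1% of the level and was at 50.5 ± 3.22 FPKM in Control mice and 40.03 ± 7.68 in Ang II mice. Prdx6-201, of 959 bases, was at 81.9, 5.55, 83.5, 90.8 and 4.59 FPKM in Control mice, from 2.57 to 5.99 in Ang II mice, and at 4.402, 4.204, 79.3, 5.10 and 4.07 in Ang II + QDG mice. Prdx6-202, of 2387 bases, ran the other way, at 9.61, 37.2, 13.3, 14.8 and 41.6 FPKM in Control mice and 9.23 in Ang II + QDG mouse 3. Since FPKM divides by length, the sum rises when fragments are given to the shorter transcript. When the fragments of the gene were divided by 1 fixed length in every mouse, an alternative chosen after seeing the data, Prdx6 was at 111, 103, 123, 126 and 111 FPKM in Control mice, 95.8, 84.5, 98.1, 95.9 and 89.8 in Ang II mice and 95.5, 98.3, 109, 86.4 and 107 in Ang II + QDG mice. All 5 Ang II mice were then below all Control mice (1.42% of all genes separated in this direction in the summed FPKM), and the log2 fold change was −0.30 (adjusted p = 0.0273 from limma). With protein-coding transcripts only it was −0.97 (adjusted p = 0.068), and with the most abundant transcript only −0.35 (adjusted p = 0.244), so the size of the Prdx6 difference depends on how its transcripts are combined.

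**Figure D3:**
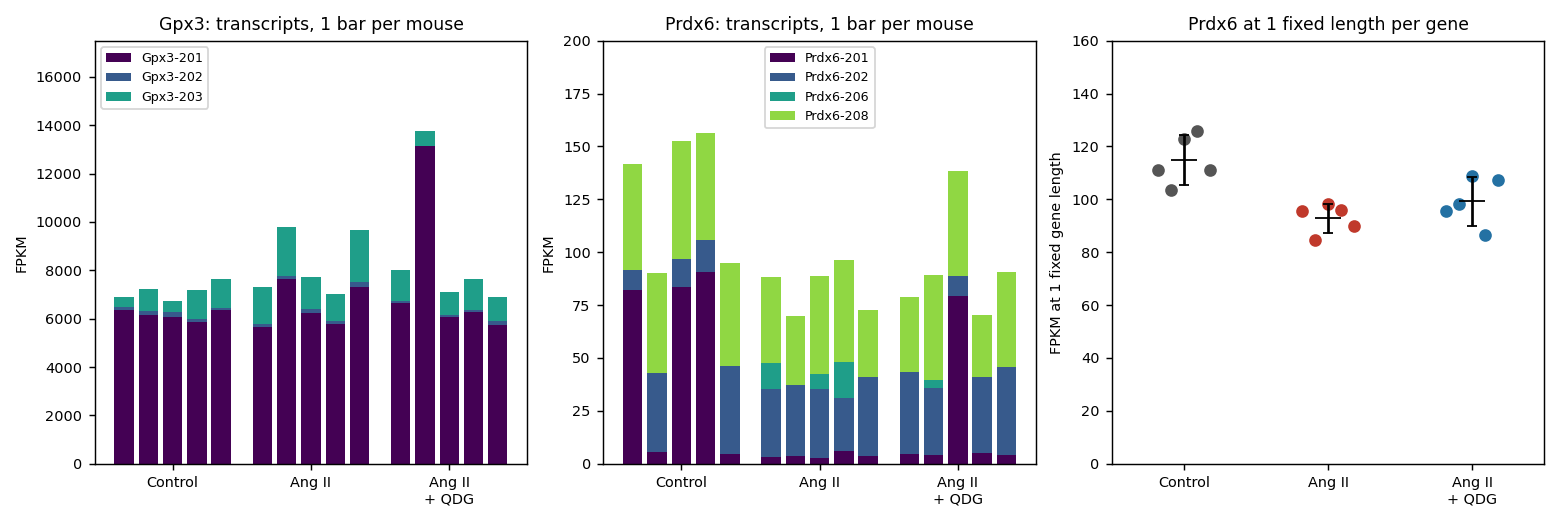
Left and middle: FPKM of the Gpx3 transcripts and of 4 Prdx6 transcripts, stacked, with 1 bar per mouse in the order Control, Ang II, Ang II + QDG. Right: Prdx6 FPKM at 1 fixed gene length, where points are mice and bars are mean ± SD of 5; Prdx6-201 is near 80 to 90 FPKM in 3 Control mice and 1 Ang II + QDG mouse and under 6 in the others, and at a fixed length all Ang II mice lie below all Control mice.

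Genes that supply or work beside these enzymes were taken from lists by function. Among the other peroxidases and the copper chaperone, 1 of 6 tested genes rose and 1 fell with Ang II, where 5.94% of all genes were called. Ccs, the chaperone that loads copper into Sod1, was at 58.1, 58.5, 62.3, 71.9 and 69.5 FPKM in Control mice and 92.2, 101, 77.7, 91.7 and 94.6 in Ang II mice, all of them above Control. A separation in this direction was seen in 6.49% of all tested genes. Ccs rose by a log2 fold change of 0.51 (SE 0.10, adjusted p = 0.012 from limma), while Sod1 did not pass. Prdx1, a cytosolic peroxiredoxin, fell by 0.33 on the log2 scale, with means of 393 ± 25.3 FPKM in Control and 315 ± 37.4 in Ang II mice (SE 0.08, adjusted p = 0.0286 from limma). All 5 Ang II mice were below all Control mice, as was so for 1.42% of all tested genes. When only these 2 groups were fitted, the adjusted p of Prdx1 was 0.0717, and its call held in 10 of the 15 fits that left out 1 mouse. The other genes with high levels in this list were Prdx2, at 89.8 ± 9.51 FPKM in Control mice 94.0 ± 8.20 in Ang II mice and 92.4 ± 12.2 in Ang II + QDG mice, and Gpx6, at 23.2 ± 6.10, 21.6 ± 6.97 and 35.2 ± 6.58 (SD, n = 5). With QDG 0 of these 6 genes passed, beside 1.81% of all genes, and 3 had an unadjusted p under 0.05, beside 16.4%; the log2 fold change of Gpx6 was 0.72 (adjusted p = 0.120 from limma).

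In the thioredoxin and glutaredoxin system, 1 of 13 tested genes rose with Ang II and 1 fell with QDG, and it was the same gene; 5.94% and 1.81% of all genes were called in these comparisons, so a count of 1 is near the background. Glrx5, the mitochondrial glutaredoxin of iron-sulfur cluster assembly, was at 21.6, 21.2, 21.6, 26.7 and 24.0 FPKM in Control mice, 28.0, 28.5, 30.9, 27.5 and 31.9 in Ang II mice and 24.4, 23.2, 21.1, 21.5 and 22.5 in Ang II + QDG mice. The Ang II mice lay above all mice of both other groups. Of all tested genes, 6.49% separated in this direction from Control, and the share that separated from both groups was not counted. With Ang II the log2 fold change of Glrx5 was 0.34 (adjusted p = 0.0164 from limma) and, with QDG, −0.37 (adjusted p = 0.0249). With median scaling neither passed (adjusted p = 0.113 and 0.0508), and with quantile normalization the one with Ang II did not (adjusted p = 0.0647). The call with QDG held in 9 of the 15 fits that left out 1 mouse (adjusted p up to 0.0584). The most abundant genes of the list were Txn1, which encodes thioredoxin, at 190 ± 20.05, 218 ± 4.87 and 188 ± 22.1 FPKM in the 3 groups in the order used above, and Txnip, Txn2 and Txnrd1, of which Txnrd1, thioredoxin reductase, was at 47.6 ± 7.697, 65.0 ± 12.9 and 50.1 ± 5.53. None of these 4 passed. The list holds 14 genes, and Glrx was not tested because it was below the filter on low values. It is named here after its values were seen. Its level was 0.0752 ± 0.0527 FPKM in Control mice, 17.8 ± 16.6 in Ang II mice and 5.11 ± 11.4 in Ang II + QDG mice (SD, n = 5 each).

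Among genes of glutathione and NADPH supply, Gsr was the 1 of 11 tested that rose with Ang II and the 1 that fell with QDG, again beside 5.94% and 1.81% of all genes. Gsr encodes glutathione reductase, which returns oxidised glutathione to the form used by glutathione peroxidases. It was at 70.6, 67.2, 74.7, 75.2 and 76.8 FPKM in Control mice, 100.3, 116, 82.9, 95.5 and 102 in Ang II mice and 83.3, 70.3, 68.4, 83.0 and 69.9 in Ang II + QDG mice. All Ang II mice were above all Control mice, as was so for 6.49% of all tested genes, and Ang II mouse 3 overlapped the Ang II + QDG group. With Ang II the log2 fold change was 0.43 (SE 0.09, adjusted p = 0.0139 from limma) and, with QDG, −0.40 (SE 0.09, adjusted p = 0.0341). With median scaling the first was at an adjusted p of 0.0502, and the second was at 0.0525 with quantile normalization and 0.0939 when only these 2 groups were fitted. The call with QDG held in 8 of the 15 fits that left out 1 mouse (adjusted p up to 0.0873). Ggt1, Idh2, Idh1 and Me1, the most abundant others, did not pass in either comparison. Nnt, the mitochondrial transhydrogenase that makes NADPH, is named here after its values were seen, because GENCODE M21 holds it as 2 genes that overlap on the same strand. The list counts used ENSMUSG00000025453, which was at 3.77, 97.1, 17.9, 58.3 and 3.10 FPKM in Control mice, 80.3, 65.6, 2.92, 23.1 and 31.0 in Ang II mice and 4.31, 5.71, 13.6, 8.35 and 3.01 in Ang II + QDG mice. The other, ENSMUSG00000116207, was listed at 0 in 3 Control and 4 Ang II mice, at 43.7 and 44.6 FPKM in Control mice 1 and 5, at 46.7 in Ang II mouse 3, and from 34.6 to 52.0 in all 5 Ang II + QDG mice. Since the pair overlaps, both levels are uncertain, and the cause of the split was not tested.

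None of 8 tested genes of selenoprotein supply passed with limma in any of the 3 comparisons, in which 5.94%, 1.81% and 0.129% of all genes did. At an unadjusted p under 0.05 there was 1 of 8 with Ang II (22.7% of all genes), 0 with QDG (16.4%) and 2 in Ang II + QDG vs. Control (14.4%), 1 higher and 1 lower; the lower one was Selenop, with a log2 fold change of −1.03 (adjusted p = 0.333). Selenop, the plasma carrier of selenium, was at 1368, 1009, 1458, 1300 and 1108 FPKM in Control mice, 1167, 1152, 1151, 1201 and 987 in Ang II mice and 1055, 793, 814, 112 and 1044 in Ang II + QDG mice. Ang II + QDG mouse 4 was far below the others. Sephs2, Scly and Sephs1 were the next most abundant of the list. Of 23 peroxisome genes, which include the import machinery that catalase uses, 0 passed with Ang II (6 had an unadjusted p under 0.05, all higher, beside 17.9% of all genes), and the median log2 fold change was 0.11. With QDG 0 of the 23 passed, 2 were higher and 2 lower at an unadjusted p under 0.05 (16.4% of all genes), and the median was −0.03. In Ang II + QDG vs. Control 0 of these genes passed, and 0 had an unadjusted p under 0.05 (14.4% of all genes). Ehhadh, Hao2 and Dao were among the most abundant of them.

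**Figure D4:**
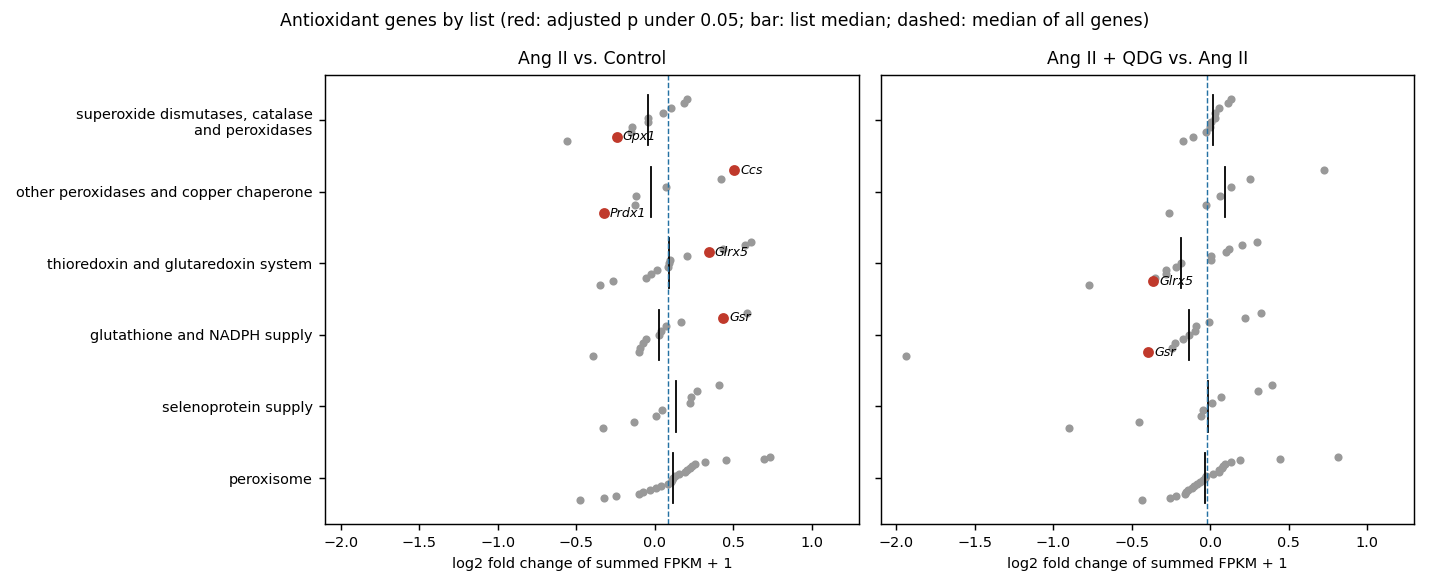
Log2 fold change of summed FPKM + 1 (horizontal axis) of each tested gene by list in Ang II vs. Control on the left and for the addition of QDG to Ang II on the right; each point is 1 gene, red named points have an adjusted p under 0.05, the bar is the list median and the dashed line the median of all genes. Ccs, Glrx5 and Gsr are red and higher in Ang II, Prdx1 and Gpx1 are red and lower, and Glrx5 and Gsr are red and lower with QDG.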

How the data were processed

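The labels describe rRNA depletion of total kidney RNA (NEB kits), and the study's methods add a poly(A) isolation kit, so whether RNA without a poly(A) tail was kept is not settled, which bears on mitochondrial and retained-intron values. The authors deposited 1 FPKM value per transcript and mouse; their submission notes name mm10 and limma, and the aligner and quantifier are not given in the sources used here. The unit is not stated. It was taken as FPKM because in each mouse, multiplying the values by transcript length gave steps of equal size, with whole numbers of steps (within 0.05 of a step) for 98.4% to 98.6% of values under 200 fragments. Multiplied by length, the matched values came to 81.5% to 83.8% of the total that FPKM gives over all features, while the listed values came to 52.2% to 56.7% of the total of TPM. Transcripts were matched to GENCODE M21 (GRCm38): 31254 of 31301 Ensembl identifiers matched, and annotated FPKM were summed per gene. Assembled transcripts without a gene name (9.57% to 11.9% of the FPKM) stayed out of gene sums. Genes that reached 1 FPKM in 5 or more mice were tested on log2(FPKM + 1), so fold changes of low genes are understated, with limma 3.58.1 (R 4.3.3, trend, 1 model of 15 mice, 12 residual degrees of freedom, Benjamini-Hochberg over 12372 genes or 28812 transcripts). On simulated data of 12173 genes, the test called 77.6% of genes with a log2 change of −1 and 76.0% with a change of 1. Changes as small as those of the 10 genes were not simulated, so these shares give no rate of detection for them.

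All 10 genes were named with every value, and so could be any of their transcripts that passed the same filter. Of each function list the genes called in Ang II vs. Control or in Ang II + QDG vs. Ang II and up to 4 genes of the highest mean were named, except 1 that is not reported here. For a gene among the 10 with an adjusted p under 0.05, the 3 other genes with the highest Pearson's r were named. The members and lists were chosen with earlier results of these data known. No covariate was used; the alternatives tried are given in the closing section. Mice are numbered only to name them.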

Additional observations from a re-analysis of the deposited data

Results flagged for a closer look

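In each group of 5 mice, the highest or lowest value was compared with the rest by the gap to its neighbour over the range of the group (Dixon's criterion, critical value 0.71), for 30 groups of gene sums and 57 groups of transcripts that passed the filter on low values, in genes with more than 1 listed transcript. For independent groups of normally spread values, chance alone picks out about 1 in 20. Here 5 of 87 stood apart, all in Ang II + QDG. Gene sums and their own transcripts were both counted. The flags of Gpx3 and Gpx3-201 are of the same mouse, as are those of Prdx6 and Prdx6-201, so the 1 in 20 is only a rough guide. For Gpx3, Ang II + QDG mouse 2 was at 13786 FPKM while the other 4 mice lay between 6912 and 8012, and its Gpx3-201 transcript was at 13160 FPKM beside 5754 to 6654. The same mouse had 9.98 FPKM of Gpx4-201, where the others of its group had 0.817 to 1.79. Control mice ran from 0.967 to 13.7 FPKM of this transcript and Ang II mice from 1.59 to 17.1, so the value stood apart only within its own group. For Prdx6, Ang II + QDG mouse 3 was at 139.7 FPKM beside 72.0 to 91.1, and its Prdx6-201 transcript was at 79.3 FPKM beside 4.07 to 5.10. The Prdx6 value of this mouse was 109 FPKM at a fixed gene length, beside 86.4 to 107 in the other 4. No cause was tested.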

How the results depend on the processing

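No paired analysis was possible because the labels give no replicate numbers; the numbers used here only name the mice, in the order of deposit. In Ang II vs. Control the count of the 10 genes called was 1; it was 0 without a filter on low values, without a variance trend, with protein-coding transcripts only and with the most abundant transcript only, and 2 with median scaling (Gpx1 and Cat) and at a fixed gene length (Gpx1 and Prdx6). With quantile normalization it was Cat, not Gpx1, and with only the 2 groups fitted it was Sod3, not Gpx1. The count of their transcripts called was 0, and 2 with median scaling (Cat-201 and Gpx1-201). Leaving out 1 mouse gave 0 to 1 genes and 0 to 1 transcripts in Ang II vs. Control, and 0 to 1 genes in Ang II + QDG vs. Ang II. Genes called in Ang II vs. Control numbered 456 with only 2 groups (735 in the main result), 408 with protein-coding transcripts and 353 with the most abundant transcript, and 338 to 797 when 1 mouse was left out. In Ang II + QDG vs. Ang II there were 58 with only 2 groups (224 in the main result) and 53 to 250 without 1 mouse; in Ang II + QDG vs. Control there were 4 with only 2 groups, 6 with protein-coding transcripts and 6 with the most abundant one (16 in the main result), and 0 to 110 without 1 mouse. Of the list genes, 4 were called in Ang II vs. Control, 2 with median scaling, and 3 to 5 without 1 mouse; in Ang II + QDG vs. Ang II 2 were called, 1 with quantile normalization, median scaling or only 2 groups, and 0 to 2 without 1 mouse. Leaving out 1 mouse, Ccs, Glrx5 and Gsr kept their call in Ang II vs. Control in 15 of 15 cases and Prdx1 in 10 of 15, losing it without Control mouse 1, 3 or 4 or Ang II mouse 2 or 5 (adjusted p up to 0.0699); in Ang II + QDG vs. Ang II Glrx5 kept it in 9 of 15, losing it without Ang II mouse 2 or 5 or Ang II + QDG mouse 2, 3, 4 or 5 (up to 0.0584), and Gsr in 8 of 15, losing it without Ang II mouse 1, 2, 4 or 5 or Ang II + QDG mouse 2, 3 or 5 (up to 0.0873). Under the other settings, Glrx5 lost its call in Ang II vs. Control with quantile normalization and median scaling, Gsr with median scaling and Prdx1 with only 2 groups; in Ang II + QDG vs. Ang II Glrx5 lost it with median scaling and Gsr with quantile normalization and only 2 groups. Signs changed only where no call was made: in Ang II + QDG vs. Ang II, Sod2 was 0.0561 with quantile normalization, 0.0134 with median scaling and 0.0173 without the mitochondrial genome, Gpx3 was −0.225 and Sod1 0.0565 with quantile normalization; in Ang II vs. Control Prdx5 was −0.0554 with median scaling; in Ang II + QDG vs. Control Sod3 was −0.0801 with median scaling and Prdx5 0.0826 with the most abundant transcript. Leaving out 1 mouse gave, in Ang II + QDG vs. Ang II, −0.0406 to 0.0415 for Sod2, −0.151 to 0.0983 for Gpx3, −0.058 to 0.0117 for Sod1, −0.021 to 0.0278 for Prdx3, −0.0193 to 0.217 for Prdx6 and −0.0227 to 0.0739 for Gpx4, −0.0824 to 0.00549 for Sod1 in Ang II vs. Control and −0.0387 to 0.033 for Sod3 in Ang II + QDG vs. Control. The cause of these changes was not tested. With 5 mice a group, the spread between mice is larger than the counting error for the gene sums; for scarce transcripts such as Gpx4-206 the depth limits the precision too.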
